A study of Mus musculus with 6 samples.

Results

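The 84 genes described here encode the molecular chaperones of the cytosol and mitochondria and the proteins that assist or control them, out of 54532 genes counted. They were taken by a rule on gene names, as protein-coding genes of the HSP70, HSP110, HSP90, HSP60/HSP10, small heat shock protein (HSP), J-protein, chaperonin (CCT) and BAG families, with Hsf1, Hsf2, Chordc1 and Ahsa1. The 5 endoplasmic reticulum (ER) chaperones Hspa5, Dnajb9, Dnajb11, Dnajc3 and Dnajc10 were left out by that rule. It kept 8 genes whose products belong to the ER membrane or lumen (J proteins and Hspa13), so the set is not strictly that of the cytosol and mitochondria. Cct6a, a CCT subunit, was not among the 84 because the deposited table gives it the biotype of a processed transcript. Of the 84 genes, 67 had enough reads for a test, and 17 did not.

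RNA was sequenced from TM3, an established mouse cell line labelled as Leydig cells, the testosterone-producing cells of the testis. The vehicle group (3 libraries) received 0.1‰ dimethyl sulfoxide (DMSO) and the other group (3 libraries) 100 nM pyrotinib, an inhibitor of the epidermal growth factor receptor family, both for 48 h. The series title asks how pyrotinib is toxic to the male reproductive system. The labels do not say whether the replicates of a group are separate cultures, so p-values measure the spread between these libraries only, and 1 cell line was used.

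The libraries held 15005737 to 16171030 counted reads. The Leydig markers were scarce: Star had 266 reads over the 6 libraries and Insl3 247, Cyp11a1, Cyp17a1, Nr5a1, Hsd17b3 and Hsd3b1 had 2 to 19, and Hsd3b6 and Lhcgr had 0. Summed over the 9 Leydig markers, the level was 4.37 to 5.50 CPM (counts scaled to library size) with DMSO and 6.14 to 7.74 CPM with pyrotinib, and neither of the 2 markers with enough reads passed the test. Of 5 Sertoli cell markers only Wt1 had enough reads, and it was higher with pyrotinib (log2 fold change 0.43, adjusted p = 0.001, and 0.53 (adjusted p = 1.3e-05) after GC correction); the 5 summed to 112 to 117 CPM with DMSO and 148 to 164 CPM with pyrotinib, with 1 marker at 0 reads. Germ cell markers summed to at most 1.79 CPM in any library, with Dazl and Tnp1 at 0 reads. Neither the part of Wt1-expressing cells nor that of any other cell type in the chaperone results was tested, and in bulk RNA fewer cells of a type cannot be told apart from less RNA per cell. Pyrotinib replicates 1 and 3 stood apart from the other 4 libraries in their dependence on base composition. In those 2 libraries the log2 level relative to the DMSO mean fell by 0.22 and 0.26 for each 10 percentage points of transcript GC content, against slopes of -0.01 to 0.02 in the 4 others. For that reason GC-corrected values, and values of pyrotinib replicate 2 alone against DMSO, stand beside the calls of chaperone genes. The part of GC content in the results was otherwise not tested.

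Chaperones bind unfolded or newly made proteins and help them to fold, move between compartments or be degraded. HSP70 proteins work in cycles of ATP hydrolysis that J proteins start and that HSP110 proteins and BAG proteins complete by releasing the nucleotide, while HSP90 and the barrel-shaped chaperonins CCT and HSP60/HSP10 act on narrower sets of clients. Many of the genes respond to heat and unfolded protein through heat shock factor 1 (HSF1), which binds inverted repeats of the letters GAA in promoters.

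Because these repeats are the known control sequence of the family, they were searched for in RefSeq promoter windows (build GRCm38.p6, from 250 bases before to 50 after each start), which existed for 67 of the 84 genes. These are not the same 67 genes as those tested. The 17 genes without a window, among them Hspa8, Hspa9, Hsp90aa1, Hsp90ab1 and Hsf1, were not searched. At least 1 pair of inverted units, GAANNTTC or TTCNNGAA (each of which is its own reverse complement, so both strands are covered), occurred in 22 of 87 windows (25.3%), belonging to 20 genes, and in 15.1% of all 32851 promoter windows. A run of 3 units, GAANNTTCNNGAA or its reverse complement TTCNNGAANNTTC, which contains the pair and was added to the search later, occurred in 7 of 87 windows (8.05%) of the genes Hspd1, Hspe1, Chordc1, Hsph1 and Dnajb6, and in 0.603% of all windows. Each sequence below is 30 bases on the gene's own strand, 5′ to 3′, with the matched letters in capitals. The first 5 lines hold 3-unit matches, shown because they are rare elsewhere. In Hspd1 and Hspe1 the capitals span 2 overlapping matches (18 bases) and in Chordc1 3 overlapping matches (23 bases), while Hsph1 and Dnajb6 have 1 match of 13 bases. Dnaja1 and Cct5 are shown as called genes, 1 higher and 1 lower, with a single pair, and Hspa1a and Hspa1b because the 2 copies cannot be separated here.
Hspd1 (chr1:55088053-55088082, minus strand): ggggccTTCCGGAAGGTTCTAGAAcggacc
Hspe1 (chr1:55088053-55088082, plus strand): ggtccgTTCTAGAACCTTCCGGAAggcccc
Chordc1 (chr9:18292260-18292289, plus strand): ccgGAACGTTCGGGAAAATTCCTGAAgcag
Hsph1 (chr5:149636279-149636308, minus strand): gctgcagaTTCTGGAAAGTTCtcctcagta
Dnajb6 (chr5:29735844-29735873, plus strand): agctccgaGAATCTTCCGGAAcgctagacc
Dnaja1 (chr4:40722333-40722362, plus strand): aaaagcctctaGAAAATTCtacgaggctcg
Cct5 (chr15:31601862-31601891, minus strand): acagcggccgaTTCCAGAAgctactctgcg
Hspa1a (chr17:34972242-34972271, minus strand): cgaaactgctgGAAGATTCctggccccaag
Hspa1b (chr17:34959324-34959353, minus strand): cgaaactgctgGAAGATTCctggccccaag
Hspd1 and Hspe1 lie head to head and share 1 site, read here from either strand, which GENCODE M21 places in a UTR exon of Hspd1. The matches of Chordc1, Hsph1 and Dnajb6 also lie in UTR exons of their genes and that of Dnaja1 in an exon, while those of Cct5, Hspa1a and Hspa1b lie outside the annotated genes shown. The 30 bases shown for Hspa1a and Hspa1b are identical. A match is a sequence description and says nothing on whether a factor was bound. Among genes with a window, a pair was found in 2 of 6 genes called higher, 2 of 6 called lower, 9 of 41 not called and 7 of 14 with too few reads for a test. Over all genes with a window it was found in 4587 of 27025.

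With pyrotinib, 8 of the 67 genes tested were higher and 7 were lower, at an adjusted p below 0.05 (edgeR's quasi-likelihood test, Benjamini-Hochberg over all 14125 genes tested). These 15 genes are 22.4% of those tested, and over all genes 26.0% were called, 13.2% higher and 12.8% lower. The 2 shares are close, and which is larger depends on the setting, with 29.9% of the chaperone genes and 28.2% of all genes called after GC correction. The higher genes were Bag2, Dnaja1, Hspa4l, Dnajc16, Chordc1, Dnajb14, Dnajc2 and Hspa8, and the lower genes were Dnajc4, Dnajb1, Dnaja3, Hspa9, Cct7, Cct5 and Hspd1. The largest of the called changes was that of Dnajc4, 1.5-fold. The median log2 fold change was -0.04 over the 67 genes and 0.0022 over all genes. The CPM values of the groups did not overlap for 33 of the 67 genes, against 40.9% of all genes.

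**Figure D1:**
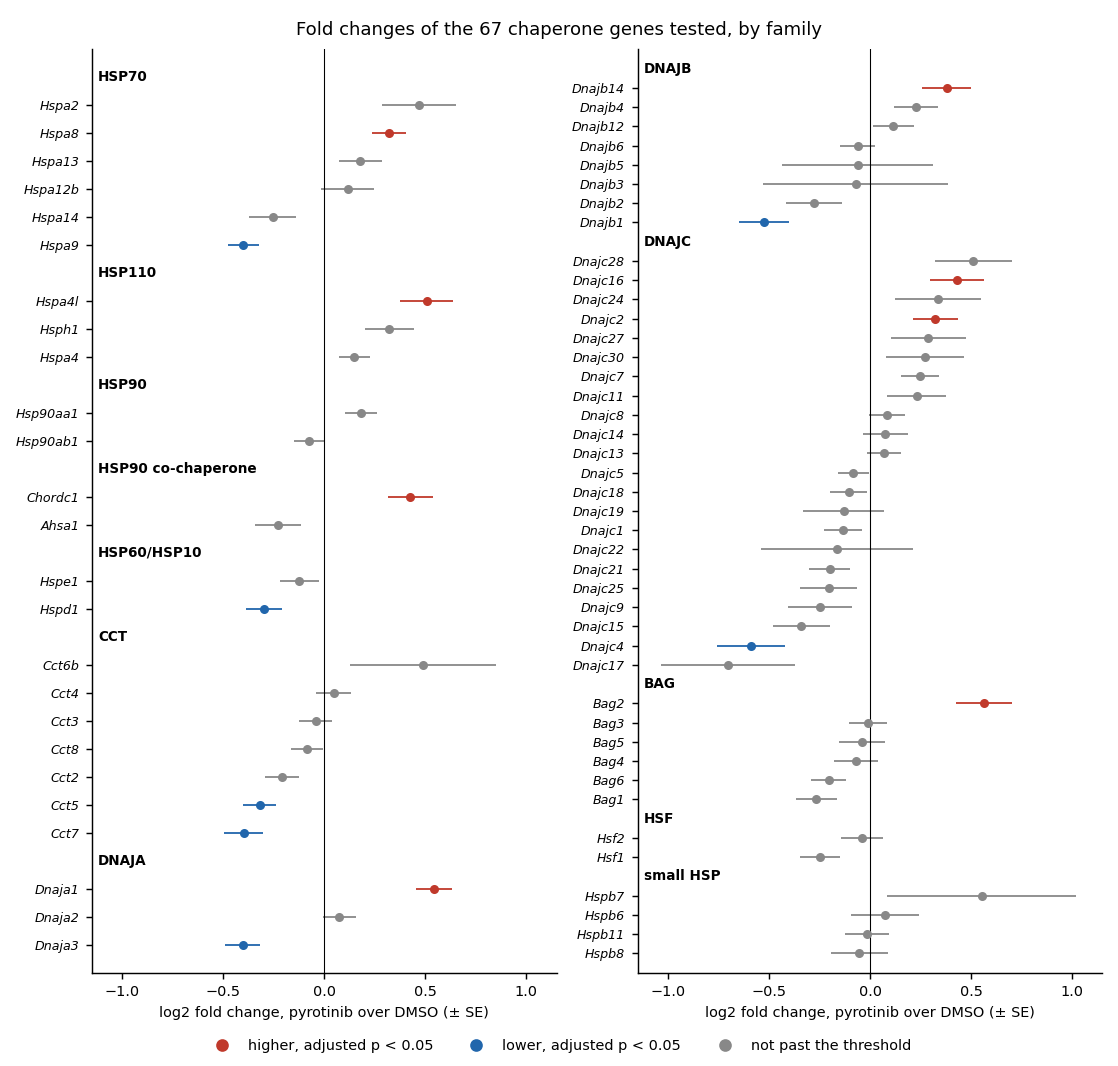
Log2 fold change of pyrotinib over DMSO for each of the 67 chaperone genes tested, by family. Points are edgeR estimates with bars of 1 approximate standard error, and colour gives the call at an adjusted p of 0.05: 8 genes were higher and 7 lower.

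After correction of each library for transcript GC content, 12 of the 15 calls were kept, 5 higher and 7 lower, with 28.2% of all genes called in that fit. The 3 calls lost were those of Chordc1, Dnajb14 and Dnajc2. A further 8 genes were called only after the correction: Cct2, Cct8, Dnajc15, Dnajc21, Hsf2 and Hspa14 lower, and Dnajc7 and Hspa2 higher. When pyrotinib replicate 2 alone was set against DMSO, which assumes that this library varies like the others, 6.90% of all genes were called. All 15 genes had the same sign in that fit as before, but the sign could hardly have differed. Replicate 2 is among the libraries behind the calls, and the CPM values of the groups did not overlap for any of the 15 genes. The shared sign is therefore not independent evidence. Of the 15, Dnaja1, Hspa8 and Hspa9 passed in that fit, as did Dnajc7. The log2 fold changes there of genes that did not pass included 0.36 for Hspa4l, 0.34 for Dnajc2, 0.30 for Dnajc16, 0.19 for Dnajb14, -0.33 for Dnaja3 and -0.29 for Dnajb1. They were -0.25 for Dnajc4, -0.24 for Cct5, -0.20 for Cct7 and -0.18 for Hspd1. On the log2(FPKM + 1) scale (FPKM, fragments scaled by gene length and library size) limma called 7 of the 15, namely Dnaja1, Bag2, Hspa9, Dnaja3, Cct5, Cct7 and Dnajb1. Across the 67 genes, log2 fold change and GC content had a Pearson r of -0.203 and a Spearman rho of -0.187 with all libraries, 0.17 (r) after the correction and 0.136 (r) in replicate 2 alone; genes are not independent replicates, and they share the libraries. Over all genes tested r was -0.221. Median GC content was 43.5% for the 8 higher genes (38.4% to 53.1%) and 50.5% for the 7 lower genes (43.8% to 57.3%).

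**Figure D2:**
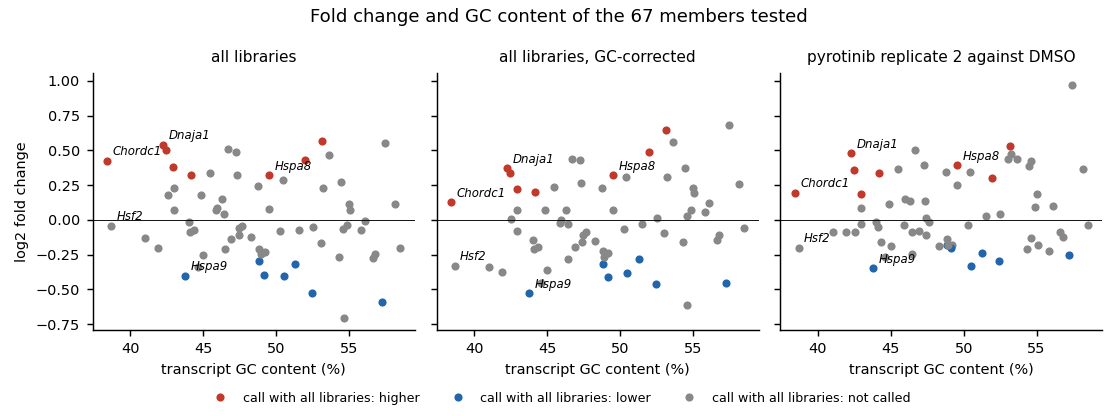
Log2 fold change (y axis) against transcript GC content in percent (x axis) for the 67 genes, with all libraries, with all libraries after GC correction, and for pyrotinib replicate 2 alone against DMSO. Colours are the calls with all libraries in every panel; r over the points is -0.203, 0.17 and 0.136 from left to right.

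**Figure D3:**
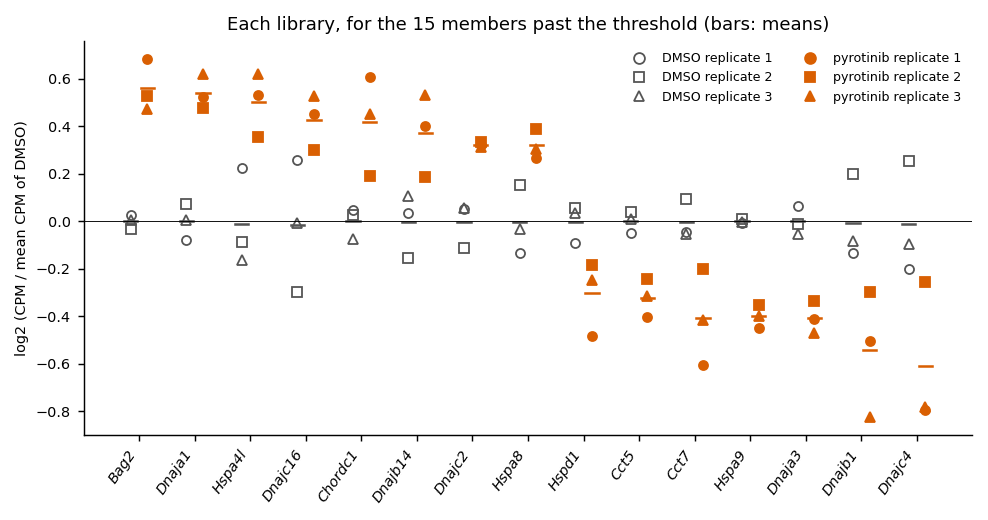
Log2 of CPM in each library relative to the mean of the DMSO libraries, for the 15 called genes. Each point is 1 library, short bars are group means, and for each of the 15 genes the DMSO and pyrotinib points do not overlap.

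The HSP70 and HSP110 genes of the cytosol were led by Hspa8, which encodes the constitutive cytosolic HSP70 (HSC70). In the count table, Hspa8 (ENSMUSG00000015656, chr9:40800984-40810087, mm10) had 1916, 2339.9 and 2054 CPM in DMSO replicates 1 to 3 and 2527, 2753 and 2598 CPM in pyrotinib replicates 1 to 3. All 3 pyrotinib libraries were above all 3 DMSO libraries, and DMSO replicate 2 was the nearest to them. Hspa8 rose 1.25-fold (log2 fold change 0.32 ± 0.08, adjusted p = 0.0085), with a log2 fold change of 0.32 (adjusted p = 0.0022) after GC correction and 0.39 (adjusted p = 0.028) in replicate 2 alone. The call was lost without DMSO replicate 3 (adjusted p = 0.057) and on the FPKM scale (adjusted p = 0.078). Per length, Hspa8 stood at 502 ± 52.5 FPKM with DMSO and 619 ± 25.3 with pyrotinib (mean ± SD, n = 3). It made up 85.1% ± 1.66 of the summed FPKM of the 9 cytosolic HSP70 and HSP110 genes with DMSO and 86.6% ± 0.730 with pyrotinib, and the sum itself was 589.6 ± 49.9 and 714 ± 23.2 FPKM.

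The 3 HSP110 genes encode nucleotide exchange factors of HSP70. The CPM values of the groups did not overlap for any of them, as for 40.9% of all genes, and only 1 of the 3 was called. Hspa4l, known in mouse for its expression in male germ cells, had 20.3, 16.4 and 15.5 CPM with DMSO and 25.2, 22.2 and 26.8 CPM with pyrotinib. It rose 1.42-fold (log2 fold change 0.51 ± 0.13, adjusted p = 0.0087), and the log2 fold change was 0.34 (adjusted p = 0.033) after GC correction. The Hspa4l call was lost without DMSO replicate 2 (adjusted p = 0.052) and without DMSO replicate 3 (adjusted p = 0.061). Hsph1, the HSP110 that heat induces, had 25.1, 24.4 and 22.5 CPM with DMSO and 34.7, 26.2 and 29.1 CPM with pyrotinib but did not pass the test (log2 fold change 0.32 ± 0.12, adjusted p = 0.057). Hspa4, the most abundant of the 3 per length at 73.1 ± 2.83 FPKM with DMSO and 80.0 ± 2.42 with pyrotinib, did not pass either (log2 fold change 0.15 ± 0.08, adjusted p = 0.17).

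Of the other HSP70 genes of the cytosol, Hspa2, which male germ cells need for meiosis, had 6.93, 6.27 and 6.99 CPM with DMSO and 7.49, 9.09 and 11.4 CPM with pyrotinib. The groups did not overlap, yet Hspa2 missed the threshold (log2 fold change 0.47 ± 0.18, adjusted p = 0.067). After GC correction it was called higher, at 0.56 (adjusted p = 0.027). Hspa14, whose product works at the ribosome, had a log2 fold change of -0.25 ± 0.12 (adjusted p = 0.11), and -0.36 (adjusted p = 0.021) after the correction. Hspa12b, a distant relative known from endothelial cells, gave 0.12 ± 0.13 (adjusted p = 0.55). The classical heat-induced pair was almost silent. Hspa1a had 0 reads in each DMSO library, which allows up to 0.187 to 0.200 CPM, and 2, 10 and 5 reads in the pyrotinib libraries, and Hspa1b had 4 reads in each group's sum. With no count filter Hspa1a reached an adjusted p of 0.02 on these 17 reads. The 2 genes are near-identical copies, and the sources used here do not give how reads that map to both were treated, so the split between them is uncertain. Hspa1l, a neighbour of both that is expressed in testis, had 18 reads with DMSO and 19 with pyrotinib, and Hspa12a had 6 and 10.

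**Figure D4:**
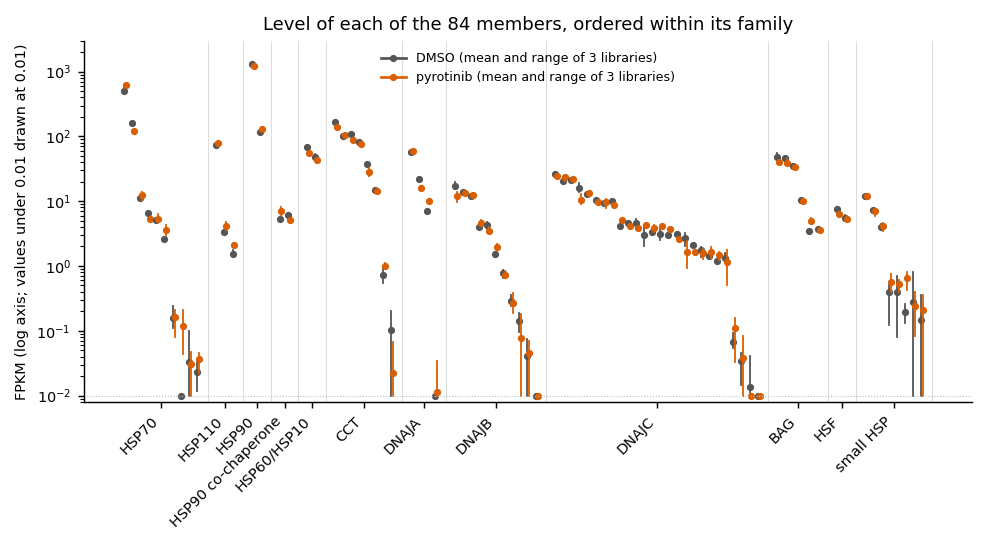
FPKM of the chaperone genes in each group on a log10 axis, by family, as the mean and range of 3 libraries, with values under 0.01 drawn at 0.01. Hsp90ab1 is at the top of both groups at 1297 FPKM with DMSO and 1215 with pyrotinib, and Hspa8 follows.

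J proteins bring clients to HSP70 and start its ATP hydrolysis. Of 41 J-protein genes, 33 were tested, and 4 rose while 3 fell, which is 21.2% against 26.0% of all genes. Leaving out 1 library gave 1 to 5 higher and 2 to 5 lower. There were 1 higher and 2 lower without DMSO replicate 2 (13.5% of all genes called), and the same counts without pyrotinib replicate 3 (14.9%). Leaving out DMSO replicate 1 gave 2 and 3 (21% of all genes), and DMSO replicate 3 gave 3 and 3 (16.9%). Pyrotinib replicate 1 left out gave 2 and 2 (17.7%), and pyrotinib replicate 2 gave 5 and 5 (35.9%). Among the general J proteins of the cytosol, Dnaja1 rose and Dnajb1 fell. Dnaja1 (ENSMUSG00000028410, chr4:40722150-40737149), whose product is farnesylated, had 55.4, 61.4 and 58.7 CPM with DMSO and 84.2, 81.4 and 90.0 CPM with pyrotinib. The lowest pyrotinib library was well above the highest DMSO library. Dnaja1 rose 1.46-fold (log2 fold change 0.54 ± 0.09, adjusted p = 0.00032), by a log2 fold change of 0.37 (adjusted p = 0.0015) after GC correction and 0.48 (adjusted p = 0.012) in replicate 2 alone, and it was called under all 20 alternative settings. Dnaja1 overlaps Smu1 on the other strand by 608 bases, and the sources used here do not say whether the counting used strand. Dnajb1 (HSP40), the J protein that heat induces with Hspa1a, had 49.2, 62.0 and 51.0 CPM with DMSO and 38.1, 44.0 and 30.5 CPM with pyrotinib. Every pyrotinib library was below every DMSO library. Dnajb1 fell 1.44-fold (log2 fold change -0.53 ± 0.13, adjusted p = 0.0054), with -0.46 (adjusted p = 0.0044) after GC correction.

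Dnaja2, the most abundant DNAJA gene per length (56.7 ± 0.426 FPKM with DMSO and 58.9 ± 3.91 with pyrotinib), did not pass the test (log2 fold change 0.07 ± 0.08, adjusted p = 0.53), and its groups overlapped. Dnaja1 held 8.15% ± 0.446 of the summed FPKM of the 4 DNAJA genes with DMSO and 11.8% ± 0.361 with pyrotinib. The mitochondrial member Dnaja3 held 25.5% ± 0.951 and 19.1% ± 1.67. The DNAJA sum was 85.4 ± 0.260 FPKM with DMSO and 85.2 ± 3.66 FPKM with pyrotinib. Dnaja4 had 2 reads in all, both in pyrotinib replicate 2.

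The other DNAJB genes of the cytosol did not pass. Dnajb6, whose product suppresses aggregation of polyglutamine proteins and whose window held a 3-unit match, had a log2 fold change of -0.06 ± 0.09 (adjusted p = 0.64). For Dnajb4 the value was 0.23 ± 0.11 (adjusted p = 0.13), for Dnajb2, a J protein known from neurons, -0.28 ± 0.14 (adjusted p = 0.15), and for Dnajb5 -0.06 ± 0.38 (adjusted p = 0.92). Dnajc7, which bridges HSP70 and HSP90, missed the threshold (log2 fold change 0.25 ± 0.09, adjusted p = 0.057) and was called after GC correction, at 0.23 (adjusted p = 0.037). Dnajc2, whose product works at the ribosome, had 21.3, 18.9 and 21.3 CPM with DMSO and 25.6, 25.9 and 25.5 CPM with pyrotinib. The pyrotinib values lay close together and above all DMSO values, and Dnajc2 rose 1.25-fold (log2 fold change 0.32 ± 0.11, adjusted p = 0.042). Its log2 fold change was 0.20 (adjusted p = 0.16) after GC correction, and the call was lost in 5 of the 6 fits that leave out a library: without DMSO replicate 1 (adjusted p = 0.076), without DMSO replicate 2 (adjusted p = 0.18), without DMSO replicate 3 (adjusted p = 0.093), without pyrotinib replicate 1 (adjusted p = 0.089) and without pyrotinib replicate 3 (adjusted p = 0.087).

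A list of 8 genes holds J proteins of the ER membrane or lumen that the rule kept, and Hspa13, an HSP70 of microsomes. In that list 2 rose and none fell, or 25% against 26.0% of all genes. None was called without DMSO replicate 2 (13.5% of all genes called) or without pyrotinib replicate 1 (17.7%) or 3 (14.9%). In that list 1 rose without DMSO replicate 1 (21% of all genes called) or 3 (16.9%), and 3 rose without pyrotinib replicate 2 (35.9%). Dnajc16 had 23.3, 15.9 and 19.4 CPM with DMSO and 26.7, 24.0 and 28.1 CPM with pyrotinib, and the lowest pyrotinib library was just above DMSO replicate 1. Dnajc16 rose 1.35-fold (log2 fold change 0.43 ± 0.14, adjusted p = 0.026), and the call was lost without DMSO replicate 2 (adjusted p = 0.17), without DMSO replicate 3 (adjusted p = 0.082), without pyrotinib replicate 1 (adjusted p = 0.066) and without pyrotinib replicate 3 (adjusted p = 0.099). Dnajb14, an ER membrane J protein facing the cytosol, had 24.1, 21.1 and 25.3 CPM with DMSO and 31.0, 26.7 and 34.0 CPM with pyrotinib. It rose 1.30-fold (log2 fold change 0.38 ± 0.12, adjusted p = 0.027), with 0.22 (adjusted p = 0.11) after GC correction, and the call was lost without DMSO replicate 1 (adjusted p = 0.06), without DMSO replicate 2 (adjusted p = 0.14), without pyrotinib replicate 1 (adjusted p = 0.071) and without pyrotinib replicate 3 (adjusted p = 0.13). Its close relative Dnajb12 did not pass (log2 fold change 0.11 ± 0.10, adjusted p = 0.43), nor did Hspa13 (log2 fold change 0.18 ± 0.11, adjusted p = 0.23), Dnajc1, Dnajc14, Dnajc18 or Dnajc25 (adjusted p from 0.3 to 0.66). The most abundant DNAJC gene per length, Dnajc5, which encodes the cysteine string protein of secretory vesicles, stood at 26.5 ± 0.447 FPKM with DMSO and 24.7 ± 0.528 with pyrotinib and did not pass (log2 fold change -0.08 ± 0.08, adjusted p = 0.46). Dnajc13, a J protein of endosomes, gave 0.07 ± 0.08 (adjusted p = 0.57), and Dnajc8, found with the spliceosome, 0.08 ± 0.09 (adjusted p = 0.52). Dnajc9, Dnajc17, Dnajc21, Dnajc22, Dnajc24 and Dnajc27 did not pass (adjusted p from 0.12 to 0.78). Of these Dnajc17 had the lowest value, -0.70 ± 0.33, and Dnajc21 was lower after GC correction, at -0.37 (adjusted p = 0.015).

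BAG proteins release nucleotide from HSP70 and steer its clients. Of the 6 BAG genes, Bag2, which inhibits the ubiquitin ligase CHIP, alone was called (16.7%, against 26.0% of all genes). Bag2 (ENSMUSG00000042215, chr1:33745484-33757795) had 10.5, 10.0 and 10.3 CPM with DMSO and 16.5, 14.8 and 14.3 CPM with pyrotinib. The DMSO values lay close together, and every pyrotinib library was above them. Bag2 rose 1.48-fold (log2 fold change 0.56 ± 0.14, adjusted p = 0.0064), with 0.65 (adjusted p = 0.0016) after GC correction and 0.53 (adjusted p = 0.084) in replicate 2 alone. Bag1 (log2 fold change -0.27 ± 0.10, adjusted p = 0.062) and Bag6 (log2 fold change -0.21 ± 0.09, adjusted p = 0.095), which guards membrane proteins in the cytosol, had negative values that did not pass. Bag3, the heat-induced partner of small HSPs in selective autophagy, gave -0.01 ± 0.09 (adjusted p = 0.95), Bag4 -0.07 ± 0.11 (adjusted p = 0.68) and Bag5 -0.04 ± 0.11 (adjusted p = 0.83).

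Hsp90ab1 was the most abundant chaperone RNA per length, and neither gene of the HSP90 pair was called. Hsp90ab1, the constitutive form, had 3607, 4035 and 3722 CPM with DMSO and 3439.6, 3848 and 3499 CPM with pyrotinib, and the groups overlapped (log2 fold change -0.08 ± 0.08, adjusted p = 0.5). Hsp90aa1, the inducible form, had 431, 481 and 442 CPM with DMSO and 519.8, 487 and 531 CPM with pyrotinib. For Hsp90aa1 the lowest pyrotinib library was just above the highest DMSO library, and the difference did not pass (log2 fold change 0.18 ± 0.08, adjusted p = 0.099). Hsp90aa1 held 8.34% ± 0.0221 of the pair's summed FPKM with DMSO and 9.84% ± 0.897 with pyrotinib. Chordc1 (morgana), a co-chaperone of HSP90, had 40.6, 40.1 and 37.3 CPM with DMSO and 59.9, 44.9 and 53.8 CPM with pyrotinib. Pyrotinib replicates 1 and 3 were the highest, and replicate 2 lay closer to the DMSO libraries. Chordc1 rose 1.34-fold (log2 fold change 0.43 ± 0.11, adjusted p = 0.0083), but its log2 fold change was 0.13 (adjusted p = 0.28) after GC correction and 0.20 (adjusted p = 0.35) in replicate 2 alone. Its call was also lost without DMSO replicate 3 (adjusted p = 0.051) and without pyrotinib replicate 1 (adjusted p = 0.058). Ahsa1, which stimulates the HSP90 ATPase, did not pass (log2 fold change -0.23 ± 0.11, adjusted p = 0.14), although its groups did not overlap.

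CCT is the ring-shaped cytosolic chaperonin that folds actin and tubulin. Of its 7 genes tested, 2 fell and none rose (28.6% called, against 26.0% of all genes), and after GC correction 4 were lower, in a fit that called 28.2% of all genes. In pyrotinib replicate 2 alone none was called. Cct5 had 285, 304 and 297 CPM with DMSO and 223, 249 and 237 CPM with pyrotinib, and fell 1.25-fold (log2 fold change -0.32 ± 0.08, adjusted p = 0.007; -0.28 (adjusted p = 0.0029) after GC correction). Cct7 had 244, 269 and 242 CPM with DMSO and 165, 218 and 189 CPM with pyrotinib, and fell 1.32-fold (log2 fold change -0.40 ± 0.10, adjusted p = 0.0059; -0.41 (adjusted p = 0.0016) after GC correction). For both subunits the highest pyrotinib library was replicate 2, and it was still below every DMSO library. Cct2, the most abundant subunit per length (165 ± 14.4 FPKM with DMSO and 141 ± 7.33 with pyrotinib), missed the threshold (log2 fold change -0.21 ± 0.08, adjusted p = 0.076) and was lower after GC correction, at -0.23 (adjusted p = 0.024). Cct8 went from -0.08 ± 0.08 (adjusted p = 0.46) to -0.21 (adjusted p = 0.039). Cct3 (log2 fold change -0.04 ± 0.08, adjusted p = 0.74) and Cct4 (log2 fold change 0.05 ± 0.09, adjusted p = 0.73) did not pass, and their groups overlapped. Subunits of the same ring that the rule did not take also did not pass: Cct6a gave -0.01 ± 0.08 (adjusted p = 0.92) and Tcp1, the founding subunit, 0.12 ± 0.08 (adjusted p = 0.31). Cct6b, a testis form, stood at 0.719 ± 0.185 FPKM with DMSO and 0.997 ± 0.109 with pyrotinib and did not pass (log2 fold change 0.49 ± 0.36, adjusted p = 0.33), and Cct8l1 had 9 reads with DMSO and 2 with pyrotinib. The 8 CCT genes that the rule took, so without Cct6a and Tcp1, summed to 513 ± 32.2 FPKM with DMSO and 452 ± 8.35 FPKM with pyrotinib. Tcp1 stood at 61.0 ± 1.80 FPKM with DMSO and 65.4 ± 5.37 with pyrotinib, and Cct6a at 40.5 ± 2.27 and 39.6 ± 0.441. FPKM uses the authors' library size and not the scaling of the test.

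The mitochondrial list holds 10 genes, all of which were tested: 4 fell (over all genes 12.8% were lower) and none rose, and the median log2 fold change was -0.21, beside 0.0022 over all genes. The list was chosen with earlier results of these data known, so its share of falls is not independent evidence. After GC correction 5 were lower (over all genes 2064 of 14114) and the median was -0.32, and in pyrotinib replicate 2 alone the median was -0.18. Without DMSO replicate 2 there were 2 lower genes (median -0.15), and over all genes 988 of 14515 were lower. Without pyrotinib replicate 1 there were also 2 (median -0.23), and 1237 of 14557 over all genes. Without DMSO replicate 3 there were 3 lower and 1 higher, with 1227 lower and 1228 higher of 14524 genes. Hspa9 (mortalin, ENSMUSG00000024359, chr18:34937414-34954357), the HSP70 of the matrix that pulls imported proteins through the inner membrane, had 615, 622 and 617 CPM with DMSO and 453, 484 and 468 CPM with pyrotinib. The values within each group lay close together and far from the other group. Hspa9 fell 1.32-fold (log2 fold change -0.40 ± 0.08, adjusted p = 0.001), with -0.53 (adjusted p = 3.4e-05) after GC correction and -0.35 (adjusted p = 0.027) in replicate 2 alone, and it was called under all 20 alternative settings. Its J-protein partner Dnaja3 (TID1) had 86.7, 82.2 and 80.0 CPM with DMSO and 62.3, 65.7 and 59.9 CPM with pyrotinib. Those groups were also clearly apart, and Dnaja3 fell 1.32-fold (log2 fold change -0.40 ± 0.09, adjusted p = 0.0025; -0.38 (adjusted p = 0.00071) after GC correction). Its interval in the annotation overlaps Vasn on the same strand and Coro7 on the other.

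HSP60 (Hspd1) and HSP10 (Hspe1) form the chaperonin barrel and lid of the matrix and are transcribed in opposite directions from 1 shared region, with 112 overlapping bases. Hspd1 had 169, 187 and 184 CPM with DMSO and 129, 158 and 151 CPM with pyrotinib, the 3 pyrotinib libraries being the lowest. It fell 1.23-fold (log2 fold change -0.30 ± 0.09, adjusted p = 0.021), with -0.32 (adjusted p = 0.0054) after GC correction. The call was lost without DMSO replicate 2 (adjusted p = 0.089), without DMSO replicate 3 (adjusted p = 0.09) and without pyrotinib replicate 1 (adjusted p = 0.14). Hspe1 had 62.9, 77.7 and 64.1 CPM with DMSO and 63.5, 59.7 and 64.8 CPM with pyrotinib, the groups overlapped, and it did not pass (log2 fold change -0.12 ± 0.10, adjusted p = 0.37). A test of whether the 2 genes differed in their response is given with the other ratios. The 5 annotated pseudogenes of Hspd1 held 467 reads in all, against 15393 for the gene, and the 6 of Hspe1 held 19 against 6180.

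Dnajc4 had 14.4, 19.7 and 15.5 CPM with DMSO and 9.53, 13.8 and 9.61 CPM with pyrotinib, and pyrotinib replicate 2 was only just below the lowest DMSO library. It fell 1.5-fold (log2 fold change -0.59 ± 0.17, adjusted p = 0.016), and the call was lost without DMSO replicate 2 (adjusted p = 0.11), without pyrotinib replicate 1 (adjusted p = 0.069) and without pyrotinib replicate 3 (adjusted p = 0.081). Dnajc15, a J protein of the inner membrane, had a log2 fold change of -0.34 ± 0.14 (adjusted p = 0.084) and was lower after GC correction, at -0.45 (adjusted p = 0.021). Its import-motor relative Dnajc19 gave -0.13 ± 0.20 (adjusted p = 0.67). Dnajc28 had the highest value of the list, 0.51 ± 0.19 (adjusted p = 0.055), which did not pass, and Dnajc11 (adjusted p = 0.26) and Dnajc30 (adjusted p = 0.32) did not pass either.

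Small HSPs hold unfolded proteins without ATP. Genes were placed in this group by name alone, which does not show that each product, such as that of Hspb11, acts in that way. The group gave no call among the 4 tested, against 26.0% of all genes. Log2 fold changes were 0.07 ± 0.17 for Hspb6, 0.55 ± 0.47 for Hspb7, -0.05 ± 0.14 for Hspb8 and -0.01 ± 0.11 for Hspb11, with adjusted p from 0.41 to 0.94. Hspb1 (HSP25 in mouse), the heat-induced member, had 2, 4 and 3 reads with DMSO and 12, 7 and 13 reads with pyrotinib. All 3 pyrotinib libraries were higher, but with no count filter its adjusted p was 0.14. Over 3 libraries, Hspb2 had 15 reads with DMSO and 21 with pyrotinib, Hspb3 10 and 9, and Hspb9, a testis form, 5 and 7. All 10 reads of Hspb3 with DMSO came from replicate 3.

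Germ cell chaperones were listed because pyrotinib was studied here for male reproduction, and TM3 is not a germ cell line. Of 10 such genes 4 were tested, and Hspa4l alone was called, while 26.0% of all genes were called. With 4 genes tested, that count does not set the list apart from all genes. After GC correction 2 of the 4 were higher (28.2% of all genes called). None was called without DMSO replicate 2 (13.5%) or 3 (16.9%), and 2 were higher without pyrotinib replicate 1 (17.7%). There was 1 higher without DMSO replicate 1 (21%), pyrotinib replicate 2 (35.9%) or pyrotinib replicate 3 (14.9%). Dnajb8 and Dnajc5b had 0 reads, Dnajb7 had 9 with DMSO and 5 with pyrotinib, Dnajb13 5 and 6, and Dnajb3 did not pass (log2 fold change -0.07 ± 0.46, adjusted p = 0.93). Outside that list, 4 J-protein genes were also too low for a test: Dnaja4 with 2 reads, Dnajc6, the uncoating factor of clathrin vesicles, with 18 reads with DMSO and 31 with pyrotinib, Dnajc12 with 7 and 8, and Dnajc5g with 1 and 0.

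HSF1, the factor that turns on heat shock genes, is controlled mainly at the protein level. Hsf1 RNA had 53.8, 54.6 and 49.4 CPM with DMSO and 42.3, 48.1 and 42.5 CPM with pyrotinib, with all pyrotinib libraries lower, and did not pass (log2 fold change -0.25 ± 0.10, adjusted p = 0.067). Hsf2, a relative active in testis and development, did not pass (log2 fold change -0.04 ± 0.11, adjusted p = 0.81) and was lower after GC correction, at -0.33 (adjusted p = 0.013). Of 17 genes listed as inducible by heat shock, 14 were tested: Dnaja1, Hspa4l, Chordc1 and Hspa8 rose, and Dnajb1 and Hspd1 fell. These 6 are 42.9% of those tested, against 26.0% of all genes. The list was chosen with earlier results of these data known, so that share is not independent evidence. Its median log2 fold change was 0.07, with 7 values above 0 and 7 below, and 0.11 in pyrotinib replicate 2 alone. After GC correction 3 were higher and 2 lower, in a fit that called 28.2% of all genes. The counts were 1 and 1 without DMSO replicate 3 (16.9% of all genes called). They were 3 and 1 without either DMSO replicate 2 (13.5%) or pyrotinib replicate 1 (17.7%), and 6 and 2 without pyrotinib replicate 2 (35.9%).

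Most of the listed co-chaperones that the rule did not take were not called, and the genes described here are the called ones. Stip1 (HOP), which links HSP70 to HSP90, had 160.1, 173 and 167 CPM with DMSO and 114, 147 and 114 CPM with pyrotinib. It fell (log2 fold change -0.42 ± 0.10, adjusted p = 0.005), with -0.37 (adjusted p = 0.0019) after GC correction and -0.18 (adjusted p = 0.28) in replicate 2 alone. The matrix protease Lonp1 had 284, 283 and 274 CPM with DMSO and 180.4, 232 and 184 CPM with pyrotinib, and pyrotinib replicate 2 was the closest to the DMSO libraries. Lonp1 fell (log2 fold change -0.49 ± 0.09, adjusted p = 0.0012), with -0.36 (adjusted p = 0.00053) after GC correction and -0.27 (adjusted p = 0.084) in replicate 2 alone. The immunophilin Fkbp5 fell (log2 fold change -0.41 ± 0.10, adjusted p = 0.008; -0.38 (adjusted p = 0.0044) after GC correction), with a call lost without DMSO replicate 3 (adjusted p = 0.062). Cdc37, the kinase-specific co-chaperone of HSP90, had 124, 146 and 128 CPM with DMSO and 87.3, 125 and 94.2 CPM with pyrotinib. Pyrotinib replicate 2 overlapped the DMSO group, and replicates 1 and 3 lay below it. Cdc37 fell (log2 fold change -0.38 ± 0.11, adjusted p = 0.021), with -0.33 (adjusted p = 0.014) after GC correction and -0.08 (adjusted p = 0.69) in replicate 2 alone, and the call was lost without DMSO replicate 2 (adjusted p = 0.12), without pyrotinib replicate 1 (adjusted p = 0.12) and without pyrotinib replicate 3 (adjusted p = 0.1). Of the prefoldin subunits, which pass actin and tubulin to CCT, Pfdn1, Pfdn4, Pfdn5 and Vbp1 did not pass (adjusted p from 0.058 to 0.79). Vbp1 was lower after GC correction, at -0.43 (adjusted p = 0.0065). Pfdn6 had 10.993, 16.9 and 12.4 CPM with DMSO and 4.54, 11.2 and 4.33 CPM with pyrotinib. Here too replicate 2 overlapped the DMSO group while replicates 1 and 3 were far lower. Pfdn6 fell (log2 fold change -0.996 ± 0.27, adjusted p = 0.012), with -0.90 (adjusted p = 0.011) after GC correction and -0.25 (adjusted p = 0.56) in replicate 2 alone, and the call was lost without DMSO replicate 2 (adjusted p = 0.083), without pyrotinib replicate 1 (adjusted p = 0.056) and without pyrotinib replicate 3 (adjusted p = 0.073). Pfdn2 fell as well (log2 fold change -0.74 ± 0.23, adjusted p = 0.027; -0.77 (adjusted p = 0.02) after GC correction and -0.38 (adjusted p = 0.43) in replicate 2 alone), and its call was lost without DMSO replicate 2 (adjusted p = 0.19), without pyrotinib replicate 1 (adjusted p = 0.12) and without pyrotinib replicate 3 (adjusted p = 0.055). Cryab (αB-crystallin, a small HSP) rose (log2 fold change 0.43 ± 0.11, adjusted p = 0.0069), with 0.51 (adjusted p = 0.00041) after GC correction and 0.57 (adjusted p = 0.0096) in replicate 2 alone, and the call was lost without DMSO replicate 3 (adjusted p = 0.052). Among the 5 ER chaperones set aside, Hspa5 (BiP) was at 944, 1966 and 1221 CPM with DMSO and 343, 337 and 326 CPM with pyrotinib, a 4.10-fold fall (adjusted p = 5.1e-07), and its log2 fold change in replicate 2 alone was -2.02 (adjusted p = 0.00073). Dnajb11 also fell (log2 fold change -0.40 ± 0.11, adjusted p = 0.013; -0.38 (adjusted p = 0.0088) after GC correction), with the call lost without DMSO replicate 2 (adjusted p = 0.079), without DMSO replicate 3 (adjusted p = 0.061) and without pyrotinib replicate 3 (adjusted p = 0.062). Dnajc10 rose (log2 fold change 0.43 ± 0.09, adjusted p = 0.0023, and 0.30 (adjusted p = 0.0026) after GC correction). Dnajb9 and Dnajc3 did not pass, and Dnajc3 was lower after GC correction, at -0.34 (adjusted p = 0.019).

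Ratios between 6 pairs of partner or sister genes, picked after their values were seen, were compared by an exact two-sided permutation test over the 6 libraries, in which 0.1 is the smallest possible p, so none could pass 0.05. The FPKM ratio of Hspa8 to Hspa9 was 2.85, 3.44 and 3.04 with DMSO and 5.11, 5.20 and 5.07 with pyrotinib. All pyrotinib ratios were higher, by 0.73 on the log2 scale (exact p = 0.1, 0.12 adjusted over the 6 pairs). Dnaja1 over Dnajb1 was 0.417, 0.368 and 0.428 with DMSO and 0.820, 0.687 and 1.09 with pyrotinib, a log2 difference of 1.08 (exact p = 0.1). For Dnaja1 over Dnaja3, the cytosolic and mitochondrial DNAJA genes, the ratios were 0.290, 0.339 and 0.333 with DMSO and 0.613, 0.561 and 0.681 with pyrotinib. That log2 difference was 0.95 (exact p = 0.1), and the groups did not overlap. Hspa8 and Dnaja1 had been called higher and Hspa9, Dnajb1 and Dnaja3 lower, each without overlap between groups. The ratios of Hspa8 to Hspa9 and of Dnaja1 to Dnajb1 or Dnaja3 therefore had to separate. Their separation is not independent evidence. The log2 ratio of Hsp90aa1 to Hsp90ab1 differed by 0.26 and that of Hspa4l to Hspa4 by 0.36 (exact p = 0.1 for each), without overlap between groups. Hspd1 over Hspe1 was 1.495, 1.34 and 1.601 with DMSO and 1.13, 1.48 and 1.30 with pyrotinib; these groups overlapped and the log2 difference was -0.19 (exact p = 0.2).

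**Figure D5:**
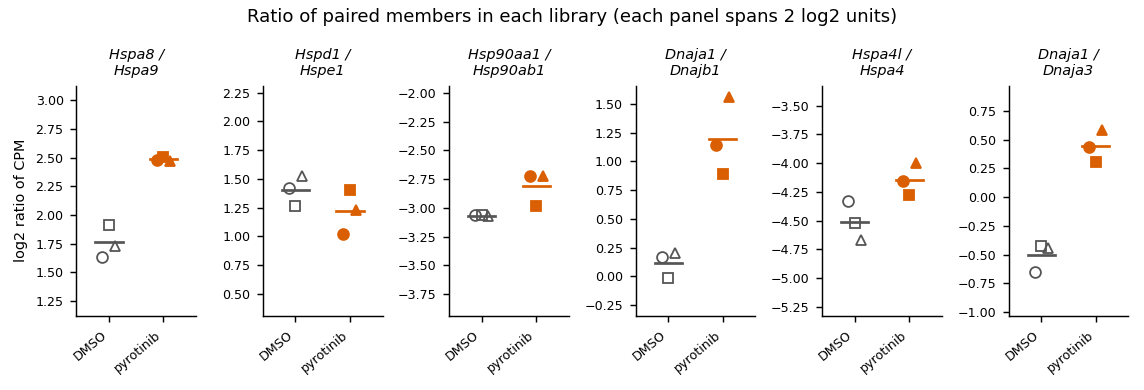
Log2 ratio of the CPM of 2 genes in each library for the 6 pairs, with DMSO and pyrotinib libraries as separate points. The groups are apart for 5 pairs and overlap for Hspd1 over Hspe1, and with 3 libraries a group no exact p can fall below 0.1. The pairs were picked after their values were seen. Hspa8 over Hspa9 and Dnaja1 over Dnajb1 or Dnaja3 had to separate, because their single genes were called in opposite directions without overlap.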

How the data were processed

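RNA was sequenced in 6 libraries of TM3 cells. The deposited table gives raw counts per gene for each library, and a second deposited table gives FPKM, which the authors computed with 1 library size per column. The build was mm10, and the tools were HISAT2 (2.0.5), fastp, DESeq2 (1.20.0) and featureCounts (1.5.0-p3), per the submitters' processing notes. The sources used here give neither the strand setting nor the treatment of multi-mapping reads.

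Groups were taken from the labels. Counts were tested in R 4.3.3 with edgeR 4.0.16 (quasi-likelihood F-test, two-sided, no replicate block) after filterByExpr (minimum count 10, minimum total 15) and TMM scaling, adjusted by Benjamini-Hochberg over 14125 genes, with a threshold of 0.05. Standard errors are approximate (the size of the log2 fold change over the root of F). CPM values are TMM-scaled; 3 counts correspond to 0.184 to 0.200 CPM, and this limit covers counting error only. FPKM was used for levels of different genes. GC content came from GENCODE M21 transcripts, and each library's log2 deviation was corrected by lowess (span 0.3). Alternatives used DESeq2 1.42.0, limma 3.58.1 and other settings given in the closing section. Scripts were tested on simulated data, where the share of false calls was above the nominal level, so calls near the threshold are less firm than their adjusted p states.

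Members and gene lists were chosen with earlier results of these data known. Named were all called members, all members of the small families, the HSP70, CCT and BAG genes, and the most abundant of the J proteins not called; other members are counted. From the list of co-chaperones outside the rule 1 gene is not reported here, so no count over that list is given. The 3-unit motif and the 6 ratios were added later.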

Additional observations from a re-analysis of the deposited data

How the results depend on the processing

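Of the 8 higher and 7 lower chaperone calls (1862 and 1805 over all genes), no member reversed its direction under any of 20 alternatives. The groups of these members did not overlap in CPM, so fits on fewer of the same libraries could hardly have reversed a direction. DESeq2, limma-voom, median-ratio or upper-quartile scaling, no count filter and a mean CPM filter moved none of the counts of calls by over 1.5 times. Members were counted only among the 67 tested in the main fit, so those with too few reads could not add a call. Hspa1a, with an adjusted p of 0.02 in the edgeR fit with no count filter, is therefore not in that count. Leaving out 1 library gave 4 to 12 higher and 5 to 13 lower members, and 968 to 2615 higher and 988 to 2611 lower genes; the fewest higher members were left without DMSO replicate 2 or 3, and the most of either direction without pyrotinib replicate 2. On FPKM, limma gave 2 higher and 5 lower members with a pseudocount of 1 (916 higher genes and 1263 lower) or 0.1 (927 and 1258), and 1 and 2 without a filter (224 and 337), and so moved the split over all genes toward lower calls. GC correction gave 7 higher and 13 lower members (1910 and 2064 genes). Pyrotinib replicate 2 alone gave 3 and 1 (529 and 526 genes), with fewer samples, and an adjusted p of 0.01 gave 5 and 5 (954 and 923). The replicate block gave 11 higher and 11 lower members (2124 and 2141 genes), and 9 and 13 with GC correction (2089 and 2320 genes). Same-numbered libraries had correlated deviations of 0.0169, 0.131 and 0.0529, so the numbers were not taken to pair them. The cause of these differences was otherwise not tested. Depth limits the 17 members that had too few reads for a test.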
